A study of Nematostella vectensis with 84 samples.

Results

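The 80 genes described here were those of the starlet sea anemone Nematostella vectensis that stood lowest, at every time point shared by the treatments, in libraries from animals exposed to streptomycin. They are 80 of the 23510 gene models in the count table. Counts were turned into CPM, scaled to a common total of reads outside the 10 genes with most reads in the whole table, and 5912 genes averaged 20 CPM or more over the 83 libraries used. At each of T0, T1, T2 and T3, the mean log2(CPM + 5) of the streptomycin libraries was compared with the smaller of the cytochalasin D and calcium-free means. Of the 5912 genes, 898 (15.2%) were lower in streptomycin at all 4 time points, and the 80 with the lowest mean difference were taken. The genes were thus chosen by their low level in streptomycin, which is given below as a description with no test.

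The tissue was oral disc with tentacles, taken from adults, and the 84 libraries form 14 groups of 6, lettered A to F. Streptomycin had 4 time points, T0 to T3, each a designated length of exposure followed by 1 hour of recovery; how long each exposure lasted is not stated. Cytochalasin D and calcium-free KSW, a medium named by an abbreviation only, had 5 time points each, T0 to T4, taken hourly during recovery. All 3 treatments are forms of trauma, no untreated group was analysed here, and the labels do not place T0 before or after the trauma. A streptomycin time point and a recovery time point of the same number are thus not the same kind of time. Calcium-free T2 replicate F was left out in choosing the genes and in what follows, so that group has 5 libraries and the whole set 83. The design text speaks of 3 replicates and 2 conditions, which the labels do not map to libraries. The labels do not tell whether the 6 libraries of a group are different animals. The p-values below therefore measure only how much libraries spread, and that spread may be technical.

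The tentacles of sea anemones carry hair bundles, vibration-sensing structures built from actin-filled stereocilia around a cilium, which help to control the firing of stinging cells. Streptomycin is an aminoglycoside antibiotic, a class known for blocking mechanosensory channels and killing vertebrate hair cells. Cytochalasin D blocks actin polymerisation, and medium without calcium breaks links between cells and between stereocilia that need calcium. The count table gives numbered gene models (NVE) without names, and none of them matched the reference gene table, so functions cannot be given for these 80 genes and few are printed by number.

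The libraries were shallow. Streptomycin libraries had total counts of 194043 to 354795, cytochalasin D libraries 272537 to 584632 and calcium-free libraries 217221 to 464108. A gene of the 80 had a median of 4 reads per streptomycin library, against 12 per cytochalasin D and 11 per calcium-free library. It had no read in 6.72% of streptomycin values, 0.583% of cytochalasin D values and 1.03% of calcium-free values. The 80 genes were of ordinary abundance: their mean CPM had a median of 46.2 (20.2 to 1832), beside 46.5 for the 5912 genes.

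Summed over the 80 genes, streptomycin libraries had less of their reads in these genes than libraries of the other treatments. At T0 the 80 genes took 0.342%, 0.415% and 0.582% of the reads outside the 10 most read genes in the lowest, median and highest streptomycin library. The same 3 figures were 0.825%, 1.02% and 1.20% in cytochalasin D and 0.709%, 1.01% and 1.32% in calcium-free KSW. Every streptomycin library at T0 was below every library of both other treatments.

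At T1 the lowest, median and highest shares were 0.286%, 0.429% and 0.598% in streptomycin, against 0.937%, 1.21% and 1.31% in cytochalasin D and 0.713%, 1.02% and 1.28% in calcium-free KSW. At T2 they were 0.230%, 0.411% and 0.466% in streptomycin, against 0.712%, 0.908% and 1.39% in cytochalasin D and 0.636%, 0.848% and 1.19% in calcium-free KSW. At T3 they were 0.254%, 0.357% and 0.403% in streptomycin, against 0.712%, 0.922% and 1.06% in cytochalasin D and 0.595%, 0.698% and 0.814% in calcium-free KSW. The groups did not overlap at any of these time points, and both other treatments had lower medians at T3 than at T1.

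**Figure D1:**
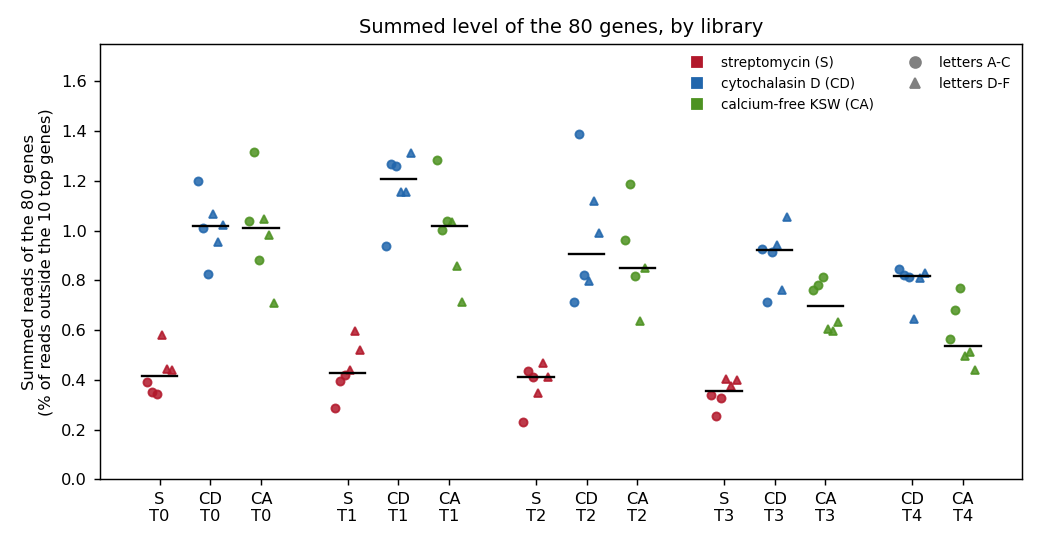
Summed reads of the 80 genes in each library, as a percent of reads outside the 10 genes with most reads, by treatment and time point; each point is 1 library, circles are letters A to C, triangles letters D to F, and bars are group medians. Streptomycin libraries lie between 0.230% and 0.598%, and at each of T0 to T3 all of them lie below all cytochalasin D and calcium-free libraries.

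The 5 most abundant of the 80 genes held much of the sum, but the order of the treatments did not rest on them. At T0 the mean share was 0.425% in streptomycin, 1.01% in cytochalasin D and 0.996% in calcium-free KSW. Without those 5 genes it was 0.240%, 0.472% and 0.559%. Without the 5 most abundant of the 80, the other genes took 0.165% to 0.338% in streptomycin libraries, 0.324% to 0.864% in cytochalasin D libraries of T0 to T3 and 0.324% to 0.891% in calcium-free libraries of T0 to T3. At each time point the highest streptomycin library was still below the lowest library of the other treatments. In these bulk samples, fewer cells of a type and less RNA per cell cannot be told apart.

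Gene by gene, the median over the 80 genes of the group mean was 24.4, 25.7, 22.9 and 25.2 CPM in streptomycin at T0, T1, T2 and T3. In cytochalasin D it was 51.7, 64.3, 53.8, 44.5 and 39.1 CPM at T0 to T4. In calcium-free KSW it was 57.2, 69.6, 59.2, 48.7 and 34.3 CPM at T0 to T4. Over all 5912 genes these medians lay between 41.96 and 50.8 CPM in every group. So the middle gene of the 80 sat below the middle of all genes in streptomycin and above it early in both recovery series.

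The mean difference that ranked the genes, in log2(CPM + 5), ran from -1.67 to -0.71, with a median of -0.83, and 19 genes were below -1. The median difference was -0.85 at T0, -1.09 at T1, -0.92 at T2 and -0.67 at T3. The 3 genes just inside the limit had mean differences of -0.712, -0.707 and -0.706, and the 3 just outside had -0.704, -0.700 and -0.6995. The limit of 80 falls in a run of near-equal values, so the last members differ little from the genes next in order.

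**Figure D2:**
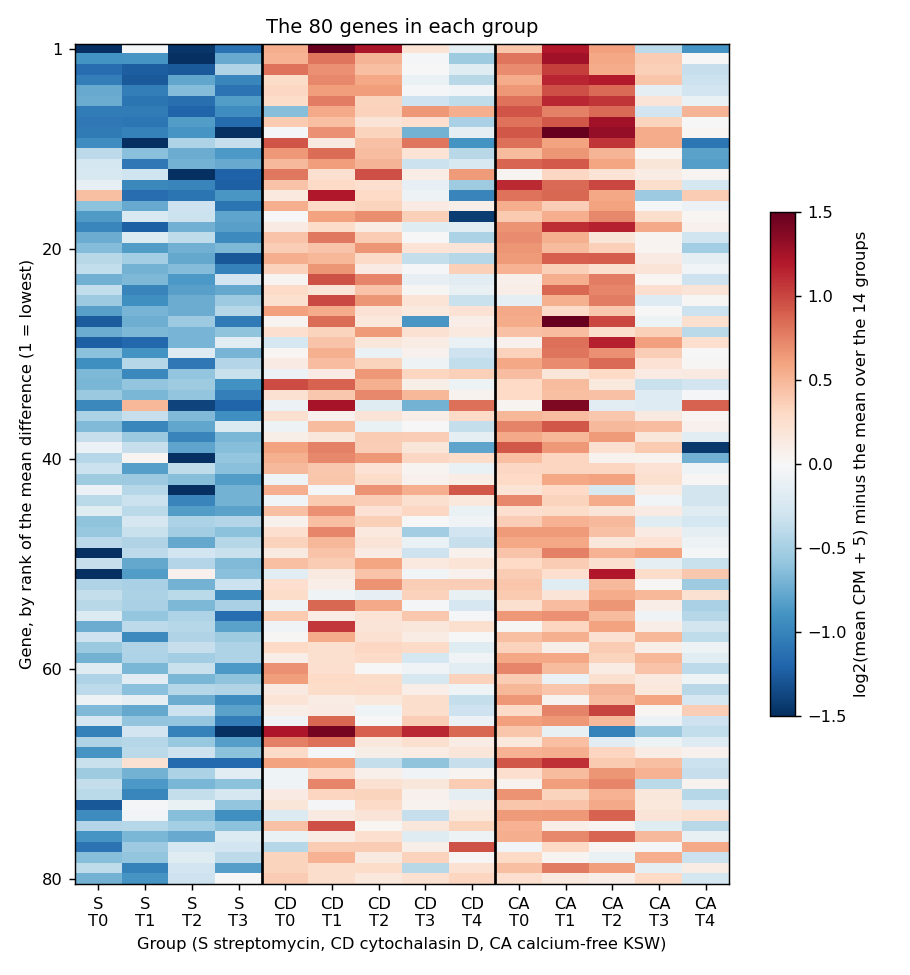
Group levels of the 80 genes, 1 gene a row ordered by mean difference with the lowest at the top, 1 group a column; colour is log2(mean CPM + 5) minus the gene's mean over the 14 groups, and values beyond 1.5 in either direction take the end colour. The 4 streptomycin columns are blue for nearly all genes, and in both recovery series the columns of T0 to T2 are redder than those of T3 and T4.

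Single genes were noisier than their sum. All streptomycin libraries were below all cytochalasin D libraries for 7 genes at T0, 20 at T1, 11 at T2 and 12 at T3; among the 5912 genes the share was 0.744%, 2.11%, 1.1% and 1.23%. All were below all calcium-free libraries for 9 genes at T0, 12 at T1, 24 at T2 and 5 at T3, beside 1.25%, 2.06%, 2.93% and 0.761% of the 5912 genes. Nothing is read from these counts, since the same difference chose the genes. The median difference against cytochalasin D was -0.92, -1.21, -0.95 and -0.80 at T0 to T3, and against calcium-free KSW -1.11, -1.19, -1.23 and -0.84. Over the 5912 genes both comparisons also had medians below 0, between -0.22 and -0.05.

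The lowest of the 80 was NVE4723. In streptomycin it had 0, 12.8 and 45.9 CPM at T0, 7.13, 40.9 and 218.5 CPM at T1, 0, 15.1 and 51.5 CPM at T2 and 11.3, 26.2 and 48.4 CPM at T3 in the lowest, median and highest library. In cytochalasin D it had 13.5, 88.02 and 224.8 CPM at T0, 65.1, 179.8 and 446.7 CPM at T1, 34.4, 119.1 and 477 CPM at T2, 23.98, 62.6 and 169.1 CPM at T3 and 16.9, 66.8 and 103.2 CPM at T4. In calcium-free KSW it had 5.04, 77.4 and 195 CPM at T0, 61.4, 154.7 and 297 CPM at T1, 31.4, 120.6 and 186.7 CPM at T2, 19.2, 47.0 and 90.8 CPM at T3 and 7.25, 34.1 and 61.5 CPM at T4. The groups overlapped at T0 to T3, and 1 streptomycin library, T1 replicate F, stood far above the others of its group. The highest streptomycin library held 6 reads of it at T0, 39 at T1, 11 at T2 and 12 at T3.

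The second lowest, NVE20068, had no streptomycin library so far apart. In streptomycin it had 0, 23.2 and 44.1 CPM at T0, 0, 18.1 and 50.4 CPM at T1, 4.68, 10.8 and 14.6 CPM at T2 and 5.13, 22.6 and 56.5 CPM at T3 in the lowest, median and highest library. In cytochalasin D it had 27.0, 82.9 and 106.8 CPM at T0, 23.8, 75.2 and 209 CPM at T1, 16.8, 55.9 and 188 CPM at T2, 16.0, 45.7 and 91.0 CPM at T3 and 12.6, 22.5 and 91.8 CPM at T4. In calcium-free KSW it had 37.9, 83.7 and 153.97 CPM at T0, 71.6, 109.6 and 179.5 CPM at T1, 32.4, 54.9 and 153.1 CPM at T2, 20.9, 68.6 and 97.6 CPM at T3 and 7.25, 46.4 and 109 CPM at T4. At T2 all streptomycin libraries were below all others, and at T4 the medians in cytochalasin D and calcium-free KSW lay within the streptomycin range.

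**Figure D3:**
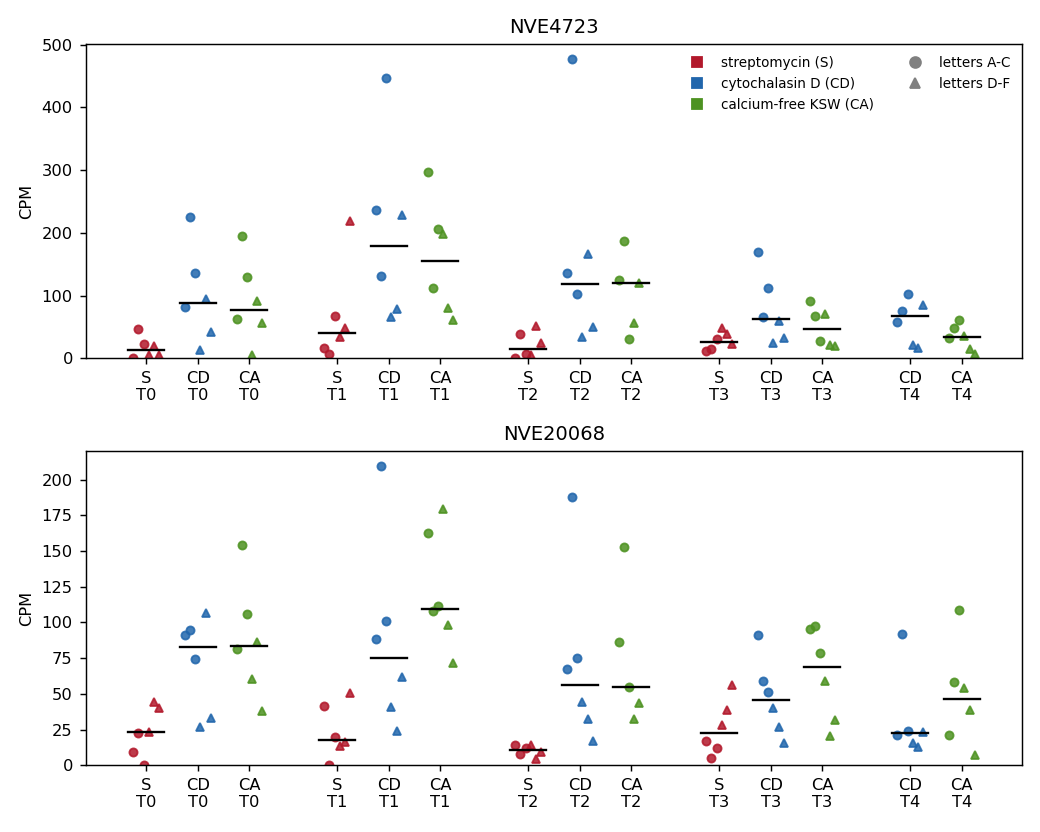
CPM of NVE4723 (top) and NVE20068 (bottom) in each library by treatment and time point; each point is 1 library, circles are letters A to C, triangles letters D to F, and bars are group medians. The median of each streptomycin group lies below the medians of both other treatments at T0 to T3, and single libraries such as streptomycin T1 replicate F (218.5 CPM of NVE4723) and cytochalasin D T2 replicate B (477 CPM) stand far above their groups.

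Sources of variation that the labels carry were set beside the low level. At a given time point, libraries of different treatments deviated from their group means together when they had the same letter (median r = 0.169 across the 5912 genes, 76 library pairs) and nearly as much when their letters were A with D, B with E or C with F (median r = 0.160, 76 pairs). Libraries of other letters did not (median r = -0.085, 304 pairs). Deviations from a group mean cancel out within the group, so positive values for some letters push those for the others below 0. Genes are not independent replicates, and these values are a description. Within the 12 combinations of time point and letter pair at T0 to T3, the summed share was lower in streptomycin than in both other treatments in 12 of 12. In those combinations 67 to 79 of the 80 genes were lower in streptomycin than in both, beside 34.6% to 50.5% of the 5912 genes. The same libraries chose the genes, so these values largely follow from that choice and carry no test.

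The number that ends each sample title also splits the libraries into a lower and a higher range. All calcium-free libraries are in the lower range and all cytochalasin D libraries in the higher one, while streptomycin changes over within T2. Streptomycin at T0 and T1 thus shares its range with calcium-free KSW, and streptomycin at T3 with cytochalasin D, and those comparisons are given above. At T2, replicates C to F of streptomycin and of cytochalasin D share a range. There the median difference of the 80 genes was -0.63, and 72 of 80 were lower in streptomycin. No overlap was found for 15 of the 80 (3.2% of the 5912 genes). Nothing is read from these counts, since these libraries also chose the genes. The test of the range within streptomycin, edgeR's quasi-likelihood test on counts (Benjamini-Hochberg adjusted p under 0.05), called 0 of the 21 members tested (0% of all genes tested; 2 members at an unadjusted p under 0.05, and 0 by DESeq2). It rests on T2 alone, with 4 libraries in the higher range and 2, replicates A and B, in the lower. Range thus follows letter within T2. The median log2 difference, higher minus lower range, was 0.34 in the members and 0.015 in all genes tested. With letter as a term in the fit it was -0.064 in the members and 0.010 in all genes tested. What the title numbers stand for is not stated.

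Library complexity moved with the low level. With every library thinned to 194043 reads, streptomycin libraries held 10590 to 12212 detected genes with a median of 11340, against 11396 to 13341 in cytochalasin D and 11321 to 13774 in calcium-free KSW. The 10 most read genes took 28.8% to 45.5% of reads in streptomycin, against 17.2% to 33.1% in cytochalasin D and 21.7% to 39.3% in calcium-free KSW. Within groups, 76 of the 80 genes were higher in libraries with more detected genes, with a median r of 0.389 over 83 libraries, beside a median of 0.132 over the 5912 genes, where 72.9% were above 0. These correlations are descriptions, since gene values and detected genes come from the same reads.

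Detected genes could be matched only in part. Of the T0 to T3 libraries, 10 of 24 in cytochalasin D and 7 of 23 in calcium-free KSW had no more detected genes than the highest streptomycin library, 12212, but none was as low as the streptomycin median (lowest 11670 in cytochalasin D and 11348 in calcium-free KSW). Their summed shares were 0.712% to 1.15% in cytochalasin D and 0.595% to 0.983% in calcium-free KSW, and the highest streptomycin library had 0.598%. All 6 calcium-free and all 6 cytochalasin D libraries of T4 also had no more than 12212 detected genes. Their shares were 0.440% to 0.771% in calcium-free KSW and 0.643% to 0.844% in cytochalasin D. For depth, libraries with totals of no more than 354795 had 0.760% to 1.20% in 12 of 24 cytochalasin D libraries and 0.595% to 1.05% in 15 of 23 calcium-free libraries. Of the streptomycin libraries only the highest, at T1, exceeded the lowest of these, which was a calcium-free library of T3. The part of detected genes in the low level was not tested.

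**Figure D4:**
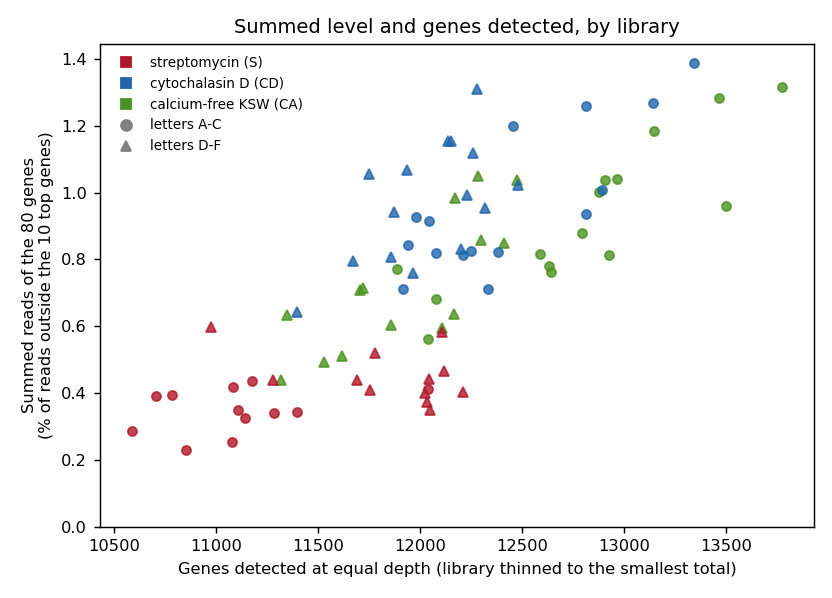
Summed reads of the 80 genes (percent of reads outside the 10 most read genes) against the number of genes detected after thinning to 194043 reads, 1 point a library, coloured by treatment, circles for letters A to C and triangles for letters D to F. Streptomycin libraries lie below all cytochalasin D libraries, and the calcium-free libraries nearest to them, down to 0.440%, have few detected genes.

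How the 80 genes behaved over the time points was asked next, with each treatment fitted on its own libraries against its T0. In streptomycin few could be tested. Of the 80 genes only 21 had enough reads there to be tested, and 1 changed over the time points, with a lower mean than at T0 (edgeR adjusted p under 0.05; 3.18% of all 2862 genes tested were called, 1.99% lower; 4 members at an unadjusted p under 0.05, and 1 called by DESeq2). At T1 and at T2 against T0, 0 members were called (0.105% and 1.54% of all genes tested; 1 and 4 members at an unadjusted p under 0.05, 0 by DESeq2 at both). At T3 against T0, 1 was called, again lower (5.97% of all genes tested, 2.87% lower). All streptomycin libraries of T0 are in the lower range of title numbers and all of T3 in the higher one. Time point and range thus cannot be told apart in that comparison. The median log2 change of the 21 was -0.15 at T1, -0.08 at T2 and -0.29 at T3, against 0.0049, 0.0014 and -0.0093 for all genes tested, and at T3 15 of the 21 were below 0.

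The gene called lower, NVE20913, is among the more abundant of the 80. It had 215, 308 and 564 CPM at T0, 78.4, 180.4 and 328 CPM at T1, 100.6, 180.8 and 290.4 CPM at T2 and 76.96, 158.6 and 241 CPM at T3 in the lowest, median and highest streptomycin library. All 6 libraries at T3 lay below the T0 median, and the ranges of T3 and T0 overlapped slightly. The log2 change at T3 against T0 was -1.09 ± 0.27 (SE, edgeR adjusted p = 0.0140), and that of any change over the time points had an edgeR adjusted p of 0.0437. The call of any change ended without replicate A, B, C, D or F, each left out of every group (edgeR adjusted p = 0.0588 to 0.204), with letter pairs summed (0.303) and in 1 fit of all libraries (0.0633).

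In cytochalasin D the 80 genes were highest early and lowest at T4. By group mean, 40 of 80 peaked at T1 (22.2% of the 5912 genes) and 45 were lowest at T4 (27.4%). The median log2 change against T0 of the 70 genes tested was 0.19 at T1 and 0.09 at T2, then -0.19 at T3 and -0.24 at T4, against -0.0035, 0.013, -0.0070 and 0.0089 for all genes tested. Since T0 to T3 entered the choice of the genes and T4 did not, part of any fall towards T4 is fixed by that choice. Of the 70, 7 changed over the time points, 2 with a higher and 5 with a lower mean than at T0 (edgeR adjusted p under 0.05; 7.76% of all 4534 genes tested, 3.68% higher and 4.08% lower). At T4 against T0, 5 of 70 were called, 1 higher and 4 lower (9.9% of all genes tested, 5.56% higher and 4.34% lower), a share near that of all genes. None of the 70 was called at T1 or at T2 (0.154% and 0.97% of all genes tested; 12 and 6 members at an unadjusted p under 0.05, 0 by DESeq2 at both), and 2 fell at T3 (4.28%, 2.03% lower).

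Of the 5 members called lower in cytochalasin D, 2 had the largest mean falls, and for both every library of T2, T3 and T4 was below the T0 median. NVE6311 had 37.1, 68.9 and 86.2 CPM at T0, 23.97, 74.1 and 100.6 CPM at T1, 21.0, 26.6 and 56.7 CPM at T2, 5.32, 26.4 and 47.7 CPM at T3 and 30.5, 31.9 and 33.7 CPM at T4 in the lowest, median and highest cytochalasin D library. The T4 libraries lay close together, below every T0 library. Its log2 change was -1.27 ± 0.34 (SE, edgeR adjusted p = 0.0277) at T3 and -0.98 ± 0.33 (SE, edgeR adjusted p = 0.0539) at T4.

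NVE15573 had 110.8, 132.7 and 168.8 CPM at T0, 89.02, 132.1 and 181.6 CPM at T1, 56.4, 103.01 and 126.1 CPM at T2, 18.1, 83.1 and 95.8 CPM at T3 and 37.3, 68.3 and 79.4 CPM at T4 in the lowest, median and highest cytochalasin D library. Every library of T3 and T4 was below every T0 library. Its log2 change was -0.91 ± 0.23 (SE, edgeR adjusted p = 0.0213) at T3 and -1.05 ± 0.24 (SE, edgeR adjusted p = 0.00477) at T4. In streptomycin NVE15573 had medians of 37.0, 41.6, 35.6 and 31.1 CPM at T0 to T3, so the cytochalasin D libraries of T4 still had a higher median.

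Both genes with a higher mean than at T0 had their highest median at T1. NVE2564 had 36.0, 46.1 and 94.8 CPM at T0, 54.4, 121.4 and 144.1 CPM at T1, 43.5, 74.4 and 165.3 CPM at T2, 26.6, 53.6 and 95.4 CPM at T3 and 37.5, 43.8 and 58.99 CPM at T4 in the lowest, median and highest cytochalasin D library. All T1 libraries were above the T0 median, and the T4 libraries lay within the T0 range. Its log2 change at T1 was 0.96 ± 0.30 (SE, edgeR adjusted p = 0.1503), and the test of any change had an edgeR adjusted p of 0.0286. That call ended without replicate A, C, E or F (edgeR adjusted p = 0.0507 to 0.145).

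NVE15307 had 11.9, 19.4 and 35.1 CPM at T0, 17.1, 34.9 and 57.6 CPM at T1, 12.6, 32.1 and 82.7 CPM at T2, 8.67, 20.6 and 58.98 CPM at T3 and 0, 4.07 and 12.6 CPM at T4 in the lowest, median and highest cytochalasin D library. The groups of T1, T2 and T3 overlapped that of T0, and all 6 libraries of T4 were below the T0 median. Its change was called (edgeR adjusted p = 0.0116), but the mean log2 change over the 4 later time points was 0.03, made of 0.70, 0.92, 0.46 and -1.97, and its sign turned under other settings.

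Limits of these cytochalasin D calls come from the letters. With letter pairs summed, 4 of 80 members changed, all lower, and without replicate C 2 of the members tested did. NVE6311 and NVE15307 were not called without replicate C (edgeR adjusted p = 0.0635 and 0.0536), nor NVE15573 without replicate F (0.0550).

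**Figure D5:**
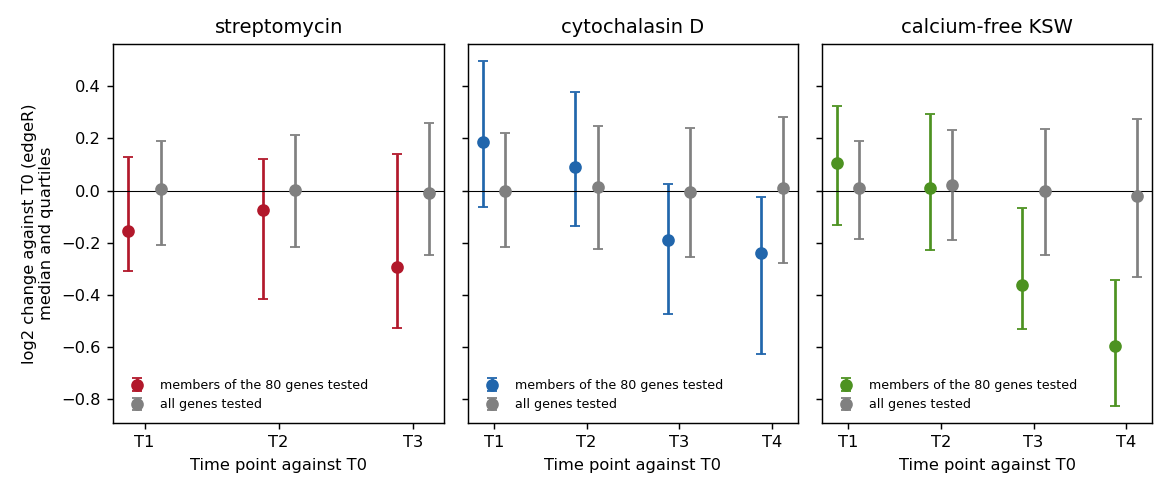
Log2 change against T0 from edgeR in each treatment, as the median (point) and quartiles (bars) over the members of the 80 genes tested (21 in streptomycin, 70 in cytochalasin D, 75 in calcium-free KSW; coloured) and over all genes tested (grey). In both recovery series the medians of the 80 genes lie above 0 at T1 and below 0 at T3 and T4, reaching -0.60 at T4 in calcium-free KSW, while those of all genes stay near 0.

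In calcium-free KSW the pattern had the same shape and a deeper end. Here too T0 to T3 entered the choice of the genes and T4 did not. Part of any fall towards T4 is thus fixed by that choice. By group mean, 33 of 80 peaked at T1 (18.3% of the 5912 genes) and 60 were lowest at T4 (36.4%). The median log2 change of the 75 genes tested was 0.11 at T1 and 0.01 at T2, then -0.36 at T3 and -0.60 at T4, where 67 of 75 were below 0. Of the 75, 4 changed over the time points, all with a lower mean than at T0 (edgeR adjusted p under 0.05; 3.31% of all 4473 genes tested, 1.34% lower). At T4 against T0, 7 fell and 0 rose (7.29% of all genes tested called; 2.73% called lower). At T1, T2 and T3, 0 members were called (0.0447%, 0% and 1.21%; 1, 3 and 11 members at an unadjusted p under 0.05, 0 by DESeq2 at each).

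Of the 4 members called in calcium-free KSW, NVE14592 had the largest mean fall. It had 50.5, 105.2 and 197.5 CPM at T0, 35.8, 141.9 and 160.2 CPM at T1, 83.2, 86.2 and 111.5 CPM at T2, 51.3, 56.2 and 95.6 CPM at T3 and 14.6, 35.1 and 42.9 CPM at T4 in the lowest, median and highest library. Every T4 library was below every T0 library. The log2 change at T4 was -1.76 ± 0.33 (SE, edgeR adjusted p = 0.00127). In cytochalasin D the same gene had a log2 change at T4 of -0.66 ± 0.32 (SE, edgeR adjusted p = 0.214).

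NVE20913, the gene called lower over the streptomycin time points, also fell here. It had 474, 732 and 1424 CPM at T0, 245, 604 and 1267 CPM at T1, 490, 686 and 1102 CPM at T2, 314, 421 and 712 CPM at T3 and 196, 315 and 450 CPM at T4 in the lowest, median and highest calcium-free library. Every T4 library was below every T0 library. The log2 change at T4 was -1.28 ± 0.27 (SE, edgeR adjusted p = 0.00363). At T4 against T0 in cytochalasin D it was -0.90 ± 0.25 (SE, edgeR adjusted p = 0.0189), although the test of any change there did not call it (edgeR adjusted p = 0.0744). It was the only member called for any change in more than 1 treatment, of 11 called in at least 1.

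Fewer detected genes went with the lower levels at T4. Thinned libraries held a median of 11752 genes at T4, against 12540 at T0, in calcium-free KSW, and 12010 at T4, against 12388 at T0, in cytochalasin D. With detected genes as a term in the fit, a choice made after seeing the data, the median log2 change of the members at T4 was -0.13 for calcium-free KSW, and for cytochalasin D it was -0.04. In that fit 0 members changed over the calcium-free time points, and 4 over those of cytochalasin D. With letter pairs summed 0 members changed in calcium-free KSW (20 at an unadjusted p under 0.05), and 0 of all 7224 genes tested did.

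The T4 libraries, which took no part in choosing the genes, were set beside the streptomycin groups. The summed share was 0.643%, 0.817% and 0.844% in the lowest, median and highest cytochalasin D library at T4. It was 0.440%, 0.537% and 0.771% in calcium-free KSW at T4. The highest streptomycin library of any time point had 0.598%, below every cytochalasin D library of T4 and within the calcium-free range. The group mean of cytochalasin D at T4 was above all 4 streptomycin group means for 68 of 80 genes (29.6% of the 5912 genes), and that of calcium-free KSW at T4 for 53 of 80 (25.9%). Both were above for 47 of 80 (13.5%). These counts carry no test, since the streptomycin means chose the genes.

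Between the 2 recovery series at T4, 0 of 79 members tested differed (cytochalasin D minus calcium-free KSW, edgeR adjusted p under 0.05; 0.777% of all 5404 genes tested; 10 members at an unadjusted p under 0.05, and 2 called by DESeq2). The median log2 difference of the members was 0.17, and 50 of 79 were above 0. A difference between these groups was thus not detectable gene by gene at this depth with edgeR.

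The letters showed a further division. The letters themselves were not used in choosing the genes, but the libraries of T0 to T3 were. The part of that choice in what follows on the letters was not tested. Over all libraries, 22 of 79 members tested were higher and 3 lower in letters A to C than in D to F (edgeR adjusted p under 0.05; 6.81% of all 5273 genes tested called, 3.3% higher and 3.51% lower). Libraries of the same letter and time point deviated together across treatments, so the 83 libraries of this fit are not independent. With the libraries of a time point and letter summed over treatments, a choice made after seeing the data, 24 members were higher and 1 lower, 22 of these 25 among those called above. In the fit of the 83 libraries the median log2 difference was 0.26 in the members and 0.0011 in all genes. Without replicate B 9 members were higher and 0 lower (51 and 86 of all 5171 genes tested). Without replicate D 13 were higher and 0 lower (73 and 97 of all 5373 genes tested). Letter pairs hold 1 letter of each set, so the division lies within pairs.

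The summed share ran in different directions. In streptomycin the summed share averaged 0.348% ± 0.066 in A to C and 0.452% ± 0.078 in D to F (SD, n = 12 each). In calcium-free KSW it averaged 0.926% ± 0.22 in A to C (SD, n = 15) and 0.722% ± 0.20 in D to F (SD, n = 14). In cytochalasin D it averaged 0.964% ± 0.21 in A to C and 0.974% ± 0.18 in D to F (SD, n = 15 each). Without the 5 most abundant genes the cytochalasin D means were 0.529% in A to C and 0.405% in D to F. Those of calcium-free KSW were then 0.609% and 0.411%, and those of streptomycin 0.196% and 0.264%. The means of A to C were below those of D to F at all 4 streptomycin time points and above them at all 5 calcium-free ones.

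Tested as a difference between treatments, the A to C minus D to F difference varied for 20 of 79 members (edgeR adjusted p under 0.05, beside 8.15% of all 5273 genes tested). With time point and letter as a block, also chosen after seeing the data, it varied for 30 members (352 and 276 of all 5273 genes, by sign of the mean). Only 21 members had enough reads to be tested within streptomycin alone. Most of the 79 thus entered through the other treatments, where the choice made them higher. The part of that choice in these counts was not tested. Within cytochalasin D 21 of 70 members tested were higher and 4 lower in A to C (188 and 241 of all 4534 genes). Within calcium-free KSW 20 of 75 members tested were higher and 1 lower (214 and 214 of all 4473 genes). Within streptomycin 0 of 21 members tested were called (7 at an unadjusted p under 0.05, not run with DESeq2). Of all 2862 genes tested there, 24 were higher and 3 lower. The median log2 difference of the 21 members was -0.32.

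Detected genes followed the same division. They averaged 11103 in A to C and 11839 in D to F in streptomycin, 12815 and 11930 in calcium-free KSW, and 12439 and 12034 in cytochalasin D. With detected genes as a term, a choice made after seeing the data, 4 members differed between the 2 sets of letters, 2 in each direction. Of all 5273 genes tested, 17 were then higher and 69 lower in A to C. In the test between treatments 1 member was called (19 and 36 of all 5273 genes, by sign of the mean). What the letters stand for is not stated.

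The size of the low level in streptomycin accordingly differed between the 2 sets of letters. Against calcium-free KSW the median log2 difference of the 80 genes was -1.59, -1.71, -1.57 and -1.26 at T0 to T3 within A to C, and -0.69, -0.72, -0.78 and -0.36 within D to F. Against cytochalasin D it was -1.31, -1.68, -1.26 and -1.12 within A to C, and -0.52, -0.72, -0.62 and -0.48 within D to F. At T3 within D to F, 62 of 80 genes were lower in streptomycin than in calcium-free KSW and 62 than in cytochalasin D, where 47.5% and 48.4% of the 5912 genes were lower. The summed shares still did not overlap there. The highest streptomycin library of D to F at T3 had 0.403% and the lowest calcium-free one 0.595%. These libraries also took part in choosing the genes, so the counts and shares carry no test.

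The genes that differed most between the sets, chosen after their values were seen, show the contrast. NVE22092 had 4.28, 51.3 and 81.1 CPM in the lowest, median and highest cytochalasin D library of A to C, and 0, 20.2 and 31.7 CPM in those of D to F. In calcium-free KSW it had 24.4, 72.1 and 108 CPM in A to C, and 0, 19.9 and 64.8 CPM in D to F. In streptomycin it had 0, 6.90 and 23.7 CPM in A to C, and 4.67, 14.8 and 19.6 CPM in D to F. The mean of A to C was above that of D to F in all 5 groups of both recovery series and in 1 of 4 streptomycin groups. Over all libraries its log2 difference was 1.07 ± 0.17 (SE, edgeR adjusted p = 1.09e-05), and that difference varied between treatments (edgeR adjusted p = 0.0326).

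NVE12643 had 0, 26.7 and 220 CPM in the lowest, median and highest of the 42 libraries of A to C, and 0, 13.5 and 91.0 CPM in the 41 of D to F. The 2 sets of letters overlapped, and A to C had the higher mean in every group of the recovery series. The log2 difference was 1.11 ± 0.22 (SE, edgeR adjusted p = 0.000455), and it was not called without replicate B (edgeR adjusted p = 0.0621).

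Against this direction, NVE23479 had 0, 23.4 and 178.9 CPM in A to C, and 0, 32.4 and 251.8 CPM in D to F. The mean of A to C was above that of D to F in 1 of 4 streptomycin, 0 of 5 cytochalasin D and 3 of 5 calcium-free groups. Its log2 difference was -0.70 ± 0.21 (SE, edgeR adjusted p = 0.0274), and it was not called with libraries summed over treatments (0.167). NVE18185 had 17.0, 53.3 and 155.05 CPM in A to C, and 22.4, 70.6 and 241.7 CPM in D to F, a log2 difference of -0.52 ± 0.13 (SE, edgeR adjusted p = 0.00805). Its A to C mean was the higher one in 3 of 4 streptomycin groups and in 1 of 5 groups of each recovery series. The sets overlapped widely for both genes, and neither call held without replicate B (0.234 and 0.0680) or without replicate D (0.140 and 0.0879).

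The 80 genes also varied together within groups. Group means chose the genes and come from the same libraries, and the part of that choice in what follows was not tested. Over the deviations of 83 libraries from their group means, the correlation between 2 of the 80 genes had a median of 0.169, and 82.1% of pairs were above 0. Over pairs of the 5912 genes the median was 0.017, and 54.7% were above 0. The libraries, their depth and their number of detected genes are shared by all these values, and the correlations are a description. Within groups the genes had a median SD of 0.703 in log2(CPM + 5), from 0.369 to 1.31, beside 0.539 for the 5912 genes.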

How the data were processed

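The authors deposited read counts per gene model, not scaled, for 84 libraries; each column matched 1 sample title. Per the labels' protocols, total RNA was kit-extracted from frozen tissue and library preparation followed a published method. Bowtie2 is named in the submitters' processing notes; no version, genome build, annotation, counting tool or use of molecular identifiers is stated. The reference gene table matched 0 of the 23510 identifiers.

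The genes and tests were chosen with earlier results of these data known. Levels were computed in Python 3.11.15 (numpy 2.4.6, pandas 2.3.3); libraries were thinned once with a fixed seed. Deposited counts were tested with edgeR 4.0.16 (R 4.3.3; filterByExpr, TMM, glmQLFit, glmQLFTest) with Benjamini-Hochberg adjustment over all genes tested and a threshold of 0.05; DESeq2 1.42.0 was an alternative. Each treatment was fitted alone for changes over time points, the 2 recovery series together for T4, all treatments together for the letters. Direction over several time points was taken from the mean log2 change. Standard errors were derived from the F statistic. The fits were tested on simulated data.

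Named genes are the 2 with the lowest mean difference and, per test over time points, up to 2 called higher and 2 called lower by size of the mean log2 change; the 4 named for the letters were chosen after their values were seen. Letters were checked as pairs: in no pair of groups of 1 treatment were all same-letter correlations above 0.1, nor between T4 of the recovery series (lowest -0.072), so they entered no fit as a block except as an alternative. Between treatments at one time point, T0 to T3, all same-letter correlations were above 0.1 in 10 of 12 pairs of groups, which bears on the fits over letters. Left-out replicates are letters left out of every group of a fit.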

Additional observations from a re-analysis of the deposited data

Results flagged for a closer look

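Groups of 5 or 6 libraries were examined for the summed share and the named genes. In 17 cases, 9.34% of the groups, 1 library was far from all others. Chance gives about 1 in 20 groups if values are normally distributed. CPM of genes with few reads need not be, so nothing is read from the difference between these rates. Cytochalasin D T2 replicate B stood high for 3 genes, with 477.4 CPM of NVE4723 (next library 166.003 CPM), 188.1 CPM of NVE20068 (next 75.11 CPM) and 165.3 CPM of NVE2564 (next 86.48 CPM); it also had the highest total count and the most detected genes of its treatment. In other cytochalasin D groups, replicate B had 94.84 CPM of NVE2564 at T0, 144.1 CPM of NVE12643 at T1 and 91.76 CPM of NVE20068 at T4.

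In streptomycin, T1 replicate F had 218.5 CPM of NVE4723, where the next library had 66.7 CPM, and 44.82 CPM of NVE23479, where the next had 16.09 CPM. T3 replicate B had 35.91 CPM of NVE15307, above 12.1 CPM in the next.

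NVE23479 stood apart most often. Replicate D at T0 had 85.43 CPM of it in cytochalasin D and 251.8 CPM in calcium-free KSW, each highest in its group, and 158.7 CPM in streptomycin, also the highest there. It also stood apart in calcium-free T1 replicate C (178.9 CPM) and in cytochalasin D T2 replicate E (101.2 CPM). NVE18185 did so in calcium-free T0 replicate D (241.7 CPM) and cytochalasin D T4 replicate F (142.1 CPM), and NVE6311 in calcium-free T3 replicate A (105.1 CPM).

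For the summed share the one such library was cytochalasin D T4 replicate D, the lowest of its group at 0.643%, where the next had 0.8082%.

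The difference between letters A to C and D to F varied between treatments for 20 members in a test of that difference itself (edgeR adjusted p under 0.05, beside 8.15% of all genes tested). The part of the choice of the genes in this count was not tested. The means of the summed share were lower in A to C than in D to F in streptomycin and higher in calcium-free KSW.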

How the results depend on the processing

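The 80 genes were low in streptomycin under other settings, which largely follows from their choice on the same libraries and carries no test. Of the 80, 79 were below both other treatments at all 4 time points with log2 of the group mean or a pseudocount of 1. The count was 76 with libraries thinned to equal depth, and 71 to 79 without 1 replicate letter. Chosen anew under those and the other settings, 55 to 75 of the same genes came back. At T4, 54 to 68 genes in cytochalasin D and 44 to 62 in calcium-free KSW exceeded all streptomycin groups without 1 letter. With all letters these were 68 and 53 (29.6% and 25.9% of the 5912 genes). Shares over all genes were not computed without 1 letter, and nothing is read from these counts. Counts of members called depended far more on the processing. Over streptomycin time points, where 1 was called, 7 were with no filter on low counts, 2 with detected genes as a term, 0 with letter pairs summed and 0 in 1 fit of all libraries; without 1 letter the count was 0 to 1. Over cytochalasin D time points, where 7 were called, DESeq2 called 12, no filter 29, detected genes as a term 4 and letter pairs summed 4, and without 1 letter it was 2 to 7. Over calcium-free time points, where 4 were called, DESeq2 called 8, no filter 25, detected genes as a term 0, letter pairs summed 0, 1 fit of all libraries 7 and T2 replicate F kept in 1, and without 1 letter it was 1 to 4. Between the recovery series at T4, where 0 were called, DESeq2 called 2, no filter 2 and detected genes as a term 2, and 0 without any 1 letter. Between title number ranges no filter gave 1, and letter pairs could not be summed there because pairs of T2 mix ranges. For letters A to C against D to F, where 25 were called, detected genes as a term left 4, 3 of them among the 25, and streptomycin alone gave 0; without 1 letter it was 9 to 28. For the difference between treatments, where 20 were called, detected genes as a term left 1, and without 1 letter it was 5 to 13. The replicate block (letter as a term), whose letters did not pair libraries of 1 treatment over its time points or those of T4, called 14 over cytochalasin D, 12 over calcium-free and 1 over streptomycin time points and 1 at T4; a block for time point with letter pair called 2 at T4, and the letter pair within group as a block called 33 for the difference between treatments. The mean log2 change of NVE15307 over cytochalasin D time points, 0.03 as reported, was -0.0060 with DESeq2 and from -0.30 (without replicate E) to 0.19 (without replicate F) without 1 letter, with -0.05 without replicate C. No cause of these differences was tested, except that unfiltered fits test more members and summed pairs hold fewer samples. In streptomycin 21 of 80 members could be tested, at a median of 4 reads per gene and library; the genes were chosen for being low there.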

Other observations

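The library left out of the analysis, calcium-free T2 replicate F, had the highest total count of all, 591692, and its 10 most read genes took 9.31% of reads, less than in any other library. The 80 genes took 0.488% of its reads outside those genes, below the 5 other libraries of its group, which had 0.636% to 1.19%. It had 12221 detected genes after thinning to equal depth, and 1 of the 80 genes had no read in it.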
